A study of Mus musculus with 9 samples.

Results

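Transcripts of the IgA antibody, its J chain and the plasma cells that make them were followed through 27 probe sets of 10 genes, out of 18193 genes named singly on the array. The genes are Igha, Ighm, Igkv8-30 and Iglv1 of the antibody chains, Jchain, Mzb1 and Derl3 of antibody assembly, and Cd79a, Prdm1 and Sdc1 of the B cell and plasma cell. A probe set was taken when the platform annotation gives it exactly 1 of these symbols. A further 8 probe sets carry a member's symbol together with others and are not used. The samples were whole distal small intestine of mice that carried Bacteroides thetaiotaomicron, a common gut bacterium, for 10 days, with pieces 10, 11, 12 and 14 of 16 pooled for each RNA sample.

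There were 3 groups of 3 arrays. The BP group has the source label Rag 1 and a title that adds BP, a term left unexplained there. The Rag1 group has the same source label and no added name; Rag1 is a gene needed to cut and join antibody and T cell receptor genes, and the labels do not give the allele. The B6 group is labelled wild type. The labels state neither age nor sex, nor if the arrays came from different mice, so p-values measure only the spread between these arrays, and their number limits the precision.

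IgA is the main antibody class secreted into the gut. Plasma cells of the gut wall join heavy and light chains in the endoplasmic reticulum, link IgA units through the J chain and release them, and the epithelial receptor Pigr carries the product into the lumen. Antibody genes are put together from V, D and J segments by a cut that needs Rag1, and B cells do not mature without it. In whole tissue, fewer plasma cells and less RNA per plasma cell cannot be told apart.

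Promoters of 5 of the 10 members were in the RefSeq table (build GRCm38.p6), each running from 250 bases before to 50 bases after the start of the gene. The promoters of Jchain and Derl3 are shown because they belong to a member that was lower outside B6 tissue and to a member that did not pass, although both genes serve antibody secretion. Jchain lies at chr5:88527848-88528147 on the minus strand and Derl3 at chr10:75893148-75893447 on the plus strand, both printed 5′ to 3′. Capitals mark the match to the ER stress response element, a site used by factors of the unfolded protein response.
Jchain: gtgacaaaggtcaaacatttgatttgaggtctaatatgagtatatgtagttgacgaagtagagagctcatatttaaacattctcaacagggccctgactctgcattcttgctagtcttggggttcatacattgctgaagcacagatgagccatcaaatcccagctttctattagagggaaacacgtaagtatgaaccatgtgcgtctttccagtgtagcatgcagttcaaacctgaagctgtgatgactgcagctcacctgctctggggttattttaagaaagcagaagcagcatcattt
Derl3: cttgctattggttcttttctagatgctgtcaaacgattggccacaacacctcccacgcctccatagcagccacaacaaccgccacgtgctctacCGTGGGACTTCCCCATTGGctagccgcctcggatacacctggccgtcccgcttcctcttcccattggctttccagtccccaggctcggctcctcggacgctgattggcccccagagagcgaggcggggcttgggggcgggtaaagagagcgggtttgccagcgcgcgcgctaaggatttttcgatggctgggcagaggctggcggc
The element was searched on both strands as CCAAT and CCACG with 9 free bases between them and was matched once in the Derl3 window, on the opposite strand, beginning 156 bases before the start. It was in 0.119% of all 32851 promoters of this length and in none of the Jchain, Cd79a, Prdm1 and Sdc1 windows. The octamer ATGCAAAT, a site of antibody gene promoters, was in 1.74% of all promoters and in none of these 5 windows.

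Intensities are given as deposited, on a linear scale whose lowest value is 1. Differences are on the log2(value + 16) scale after quantile normalization, which understates the change of dim genes. Several arrays stood apart. The 3' to 5' ratio of beta-actin, a control that rises as RNA loses its 5' end, was 14.2, 2.43 and 20.2 on BP replicates 1, 2 and 3, between 1.53 and 1.77 for Rag1 and between 1.76 and 4.17 for B6. The Dap control read 1019 on BP replicate 2, with 19.1 the next value. The brightest probe set of Xist, a transcript of female cells, read 36.0, 624 and 1735 on BP replicates 1, 2 and 3, between 5.84 and 24.1 for Rag1 and between 1086 and 1539 for B6, so for Rag1 against B6 the group and a sex-linked signal cannot be told apart. The Rag1 probe set, which cannot be placed against any deletion from the labels, read between 2.87 and 22.8 for BP, 1.37 and 2.69 for Rag1, and 3.54 and 17.6 for B6 and was too dim to test. Epithelial markers were bright in every group: the summed intensity of 15 such genes was between 69866 and 73843 for BP, 78237 and 88670 for Rag1, and 79647 and 84792 for B6.

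Transcripts of the IgA heavy chain, a kappa light chain segment and the J chain were far dimmer on every BP and Rag1 array than on any B6 array. Of the 22 member probe sets bright enough to test, 7 were lower in BP than in B6 tissue and 7 were lower in Rag1 than in B6 tissue, standing for 5 genes each: Igha, Ighm, Igkv8-30, Iglv1 and Jchain (limma, adjusted p under 0.05). No member probe set was higher in either comparison, also at an unadjusted p under 0.05. Of all 27022 tested probe sets, 0.574% were lower and 0.0592% higher in BP than in B6 tissue, and 0.259% were lower and 0.0703% higher in Rag1 than in B6 tissue. The BP and Rag1 comparisons share the B6 arrays. The filter on brightness used all 9 arrays, and 7 of the 22 tested member probe sets passed it only through their B6 values. Most of the called ones were among these: Igha 1421653_a_at and 1425763_x_at, Iglv1 1430523_s_at and the probe sets of Igkv8-30 and Jchain. Only Igha 1429381_x_at and Ighm 1427351_s_at were called and passed the filter without B6. The count therefore says little, also beside the shares of all tested probe sets. Without the filter 7 were lower in both comparisons too.

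**Figure D1:**
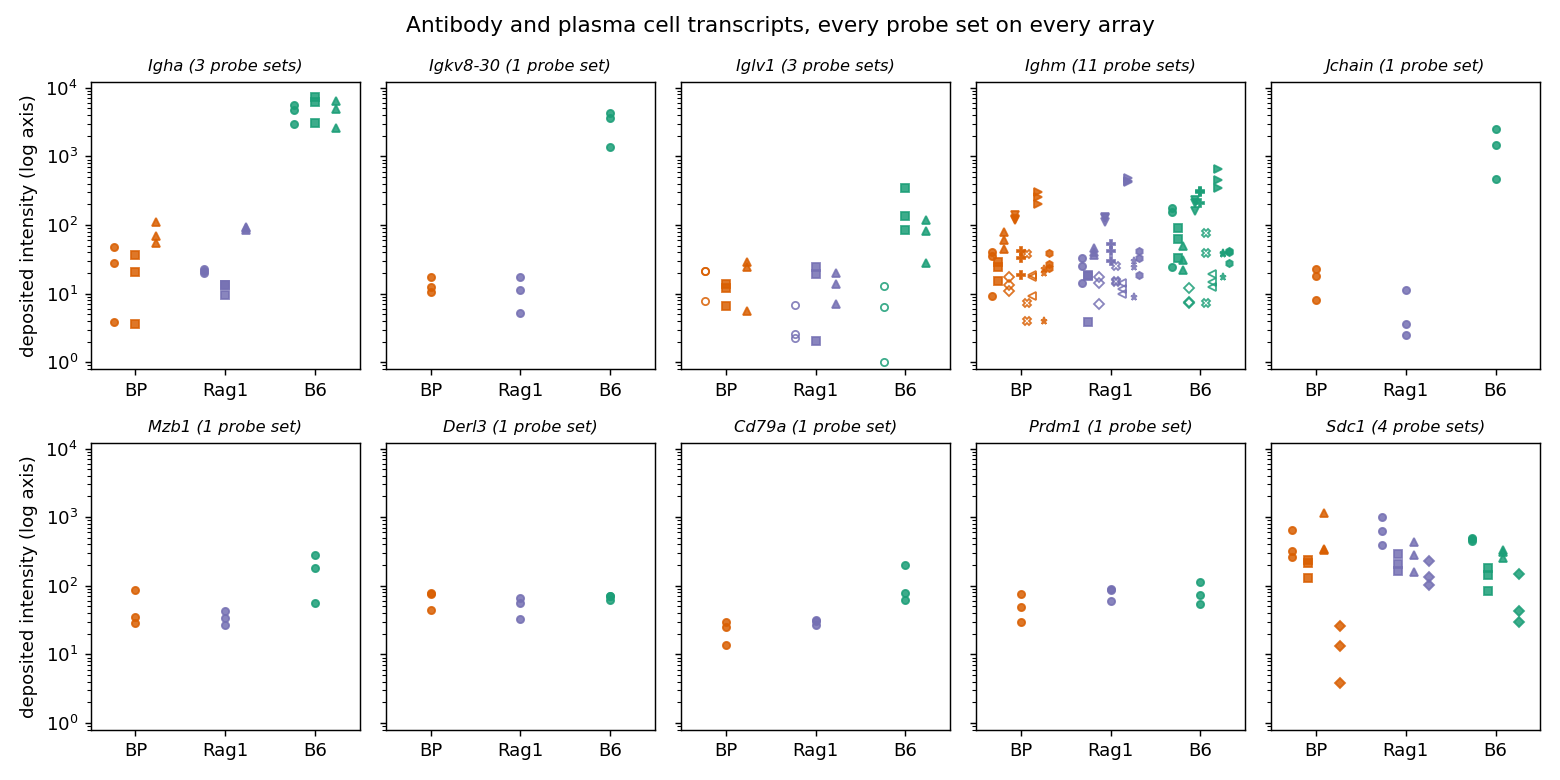
Deposited intensity (log axis) of every probe set of the 10 genes on the 3 BP, 3 Rag1 and 3 B6 arrays; each marker shape is 1 probe set of a gene, each point 1 array, and open markers are probe sets too dim to test. Igha, Igkv8-30 and Jchain lie far higher on every B6 array than on any BP or Rag1 array, while Derl3, Prdm1 and most Sdc1 and Ighm probe sets overlap.

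Igha encodes the part of the heavy chain that makes an antibody IgA, and had 3 probe sets. Probe set 1425763_x_at read 3.57, 36.5 and 20.3 on BP replicates 1, 2 and 3, 9.67, 13.3 and 13.4 on the Rag1 arrays, and 6295, 3093 and 7330 on the B6 arrays. Every B6 array lay far above every BP and Rag1 array, and the BP arrays spread to both sides of the Rag1 arrays. The difference was -7.35 ± 0.35 for BP minus B6 (SE, n = 3 per group; limma adjusted p = 3.64e-06) and -7.51 ± 0.35 for Rag1 minus B6 (adjusted p = 3.52e-06). Probe set 1421653_a_at read 3.85, 48.5 and 28.03 on the BP arrays, 22.6, 20.0 and 21.2 on the Rag1 arrays, and 4811, 2961 and 5531 on the B6 arrays. Its differences were -6.86 ± 0.34 and -6.82 ± 0.34 for BP and for Rag1 against B6. The remaining probe set, 1429381_x_at, read 111, 54.5 and 68.4 on the BP arrays, 93.4, 89.7 and 83.4 on the Rag1 arrays, and 4947, 2583 and 6389 on the B6 arrays. Its B6 values were in the range of the others, its BP and Rag1 values were higher than theirs, and its differences were smaller, -5.54 ± 0.37 for BP minus B6 (limma adjusted p = 2.38e-05) and -5.44 ± 0.37 for Rag1 minus B6 (adjusted p = 3.61e-05).

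Igkv8-30 is a variable segment of the kappa light chain, read by 1 probe set whose type, marked _x_at, can also match related transcripts. It read 10.5, 12.4 and 17.3 on the BP arrays, 5.21, 17.2 and 11.3 on the Rag1 arrays, and 3638, 1373 and 4320 on the B6 arrays. The groups BP and Rag1 overlapped and B6 stood apart. The difference was -6.57 ± 0.37 for BP minus B6 (limma adjusted p = 9.62e-06) and -6.66 ± 0.37 for Rag1 minus B6 (adjusted p = 5.41e-06).

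Iglv1, a variable segment of the lambda light chain, was much dimmer. Probe set 1430523_s_at read 14.0, 12.3 and 6.58 on the BP arrays, 24.5, 19.0 and 2.01 on the Rag1 arrays, and 85.1, 134 and 347 on the B6 arrays. The B6 arrays lay above all others but differed among themselves more than for the kappa segment. It was lower by the fit, -2.80 ± 0.43 for BP minus B6 (limma adjusted p = 0.0147) and -2.66 ± 0.43 for Rag1 minus B6 (adjusted p = 0.0216). This was the least stable of the calls: the BP difference did not pass without BP replicate 3 (adjusted p = 0.0587) or B6 replicate 2 (0.0657), and the Rag1 difference did not pass without Rag1 replicate 1 (0.0696), 2 (0.105) or 3 (0.128), or B6 replicate 2 (0.0727) or 3 (0.0880). With the replicate number as a block the Rag1 difference had an adjusted p of 0.0709. The other tested Iglv1 probe set, 1447918_x_at, read between 5.65 and 28.6 for BP, 7.16 and 20.0 for Rag1, and 27.9 and 117 for B6, and did not pass (adjusted p = 0.152 for BP minus B6 and 0.339 for Rag1 minus B6). The remaining one, 1427292_at, was too dim to test, with values between 7.70 and 21.5 for BP, 2.24 and 6.88 for Rag1, and 1 and 13.0 for B6.

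Ighm, the constant region of the IgM heavy chain, is the name given to 11 probe sets, of which 7 were tested, and they did not move as 1 group. Probe set 1427351_s_at read 41.8, 19.0 and 33.4 on the BP arrays, 52.5, 29.8 and 41.9 on the Rag1 arrays, and 316, 207 and 299.95 on the B6 arrays. It was lower on every BP and Rag1 array, by -2.64 ± 0.32 for BP minus B6 (limma adjusted p = 0.00287) and -2.41 ± 0.32 for Rag1 minus B6 (adjusted p = 0.00686). The Rag1 call was lost without Rag1 replicate 2 (adjusted p = 0.0562), B6 replicate 1 (0.0675) or B6 replicate 3 (0.0617). The brightest Ighm probe set, 1427870_x_at, showed another picture, with 306, 200.4 and 253 on the BP arrays, 424, 436 and 477 on the Rag1 arrays and 448, 349.6 and 650 on the B6 arrays. Rag1 and B6 arrays overlapped, so this probe set reads a bright signal in tissue labelled Rag 1. All BP arrays lay below all Rag1 and all B6 arrays. Neither comparison with B6 passed (limma adjusted p = 0.213 for BP and 0.999 for Rag1). Among the other 5 tested Ighm probe sets no comparison with B6 passed. Their differences from B6 ranged from -1.49 to 0.54 in BP and from -1.53 to 0.09 in Rag1 tissue. On 1425324_x_at and 1427329_a_at all BP and all Rag1 arrays lay below all B6 arrays, and the others overlapped with B6. The 4 untested Ighm probe sets read between 3.95 and 76.3 on all arrays, and without the filter none passed in any comparison.

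Jchain encodes the small protein that links IgA into dimers and IgM into pentamers. It read 18.3, 22.6 and 8.05 on the BP arrays, 2.53, 11.1 and 3.67 on the Rag1 arrays, and 1446, 472 and 2546 on the B6 arrays. The B6 arrays stood far above the rest, and the BP arrays overlapped the Rag1 arrays. The difference was -5.31 ± 0.48 for BP minus B6 (limma adjusted p = 0.000269) and -5.80 ± 0.48 for Rag1 minus B6 (adjusted p = 0.00016). The calls on Jchain, Igkv8-30 and the 3 Igha probe sets held in both comparisons under every alternative that tested them.

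Mzb1 encodes an endoplasmic reticulum protein of B cells and plasma cells that assists antibody assembly. It read 35.3, 85.5 and 28.6 on the BP arrays, 34.2, 42.5 and 26.5 on the Rag1 arrays, and 184, 55.9 and 279 on the B6 arrays. Only B6 replicates 1 and 3 were clearly above the other groups, and B6 replicate 2 lay below BP replicate 2. The differences of -1.50 ± 0.44 for BP minus B6 (limma adjusted p = 0.147) and -1.76 ± 0.44 for Rag1 minus B6 (adjusted p = 0.255) did not pass. Without B6 replicate 2 they were -2.09 (adjusted p = 0.0287) and -2.35 (adjusted p = 0.0142), and without BP replicate 2 they were -1.71 (adjusted p = 0.0255) and -1.77 (adjusted p = 0.0469).

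Derl3, a part of the machinery that removes misfolded proteins from the endoplasmic reticulum, did not separate the groups. It read 44.2, 76.5 and 77.4 on the BP arrays, 56.9, 66.6 and 32.3 on the Rag1 arrays, and 72.0, 62.6 and 70.1 on the B6 arrays. The 3 groups overlapped, with differences of -0.16 ± 0.27 for BP minus B6 (limma adjusted p = 0.845) and -0.47 ± 0.27 for Rag1 minus B6 (adjusted p = 0.999).

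Cd79a encodes a signalling chain of the B cell receptor. It read 13.8, 29.8 and 24.7 on the BP arrays, 27.0, 32.2 and 30.7 on the Rag1 arrays, and 200.1, 62.0 and 79.6 on the B6 arrays. The B6 arrays lay above all others without overlap, but B6 replicate 1 was far above the other two and the differences did not pass, at -1.73 ± 0.36 for BP minus B6 (limma adjusted p = 0.0603) and -1.43 ± 0.36 for Rag1 minus B6 (adjusted p = 0.258). The BP difference passed without BP replicate 2 (limma adjusted p = 0.0125), and also with median centring (0.0311), array weights (0.0232) or the actin covariate (0.0157). The Rag1 difference passed in 1 of 23 alternatives. In all, 12 of the 22 tested member probe sets had their 3 BP arrays below the 3 B6 arrays, and 12 had their 3 Rag1 arrays below the 3 B6 arrays. Among all tested probe sets these shares were 8.74% and 5.1%. Of the 12, 6 for BP and 7 for Rag1 had passed the filter only through their B6 values; among the 15 member probe sets that passed without them, 6 and 5 did not overlap.

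Prdm1 encodes Blimp-1, a regulator of plasma cell formation, and Sdc1 encodes syndecan-1, a surface marker of plasma cells; epithelial cells are known to make both. Prdm1 read 29.2, 48.7 and 76.6 on the BP arrays, 90.6, 85.4 and 59.1 on the Rag1 arrays, and 54.7, 73.6 and 113 on the B6 arrays. The groups overlapped, with differences of -0.63 ± 0.33 for BP minus B6 (limma adjusted p = 0.416) and -0.16 ± 0.33 for Rag1 minus B6 (adjusted p = 0.999). The brightest Sdc1 probe set, 1415943_at, read 326, 659 and 266 on the BP arrays, 633, 393 and 1015 on the Rag1 arrays, and 454, 505 and 477 on the B6 arrays, and did not separate the groups either. None of the 4 Sdc1 probe sets passed against B6, with differences from -1.54 to 0.78 in BP and from -0.24 to 0.91 in Rag1 tissue.

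**Figure D2:**
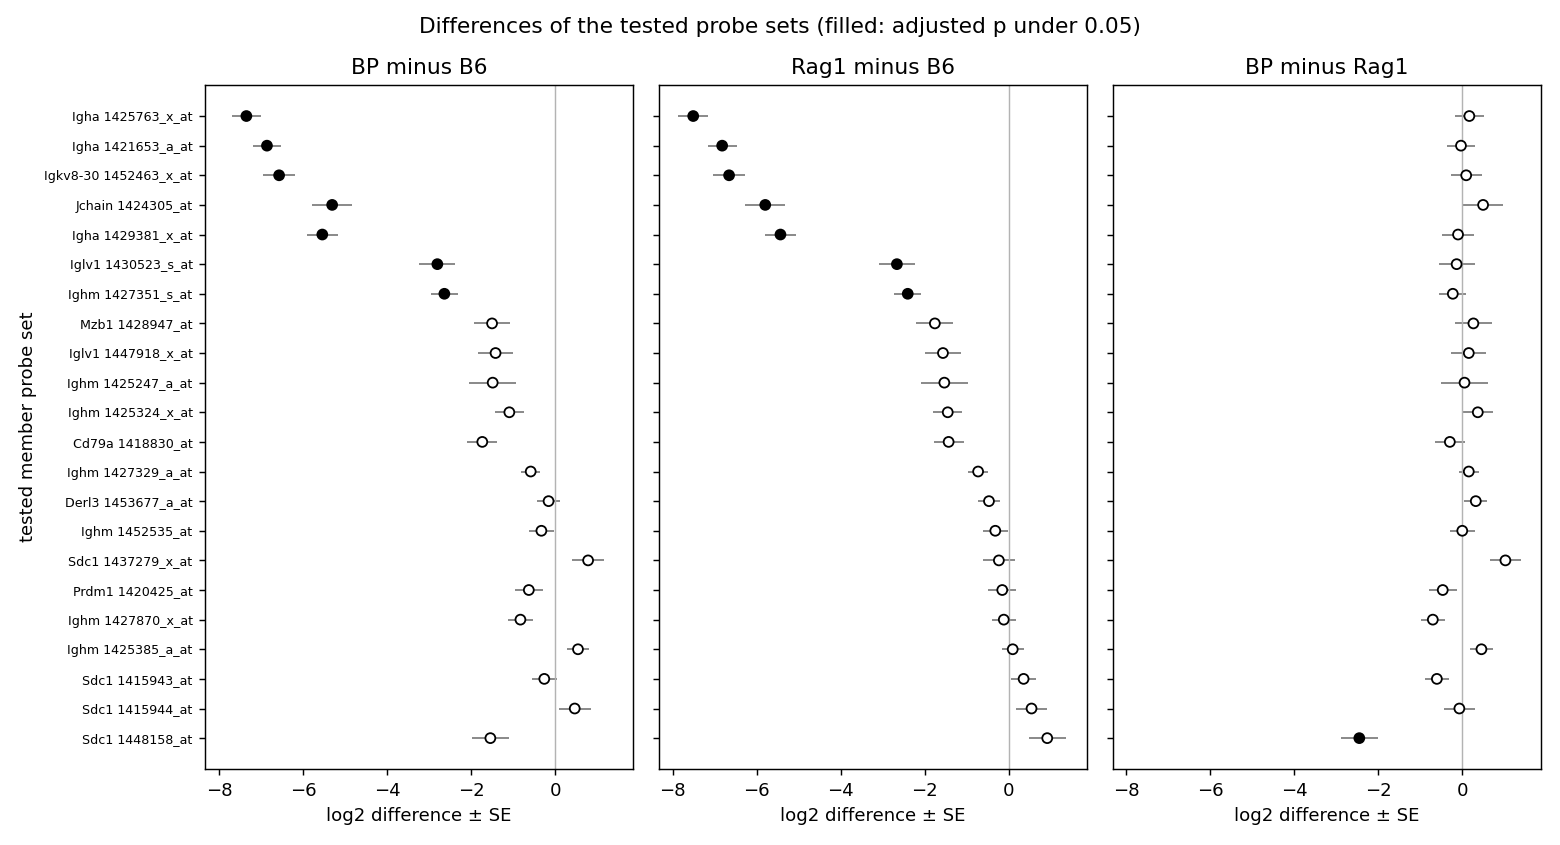
Log2 difference ± SE (n = 3 arrays per group) of the 22 tested member probe sets for BP minus B6, Rag1 minus B6 and BP minus Rag1; filled points have an adjusted p under 0.05. The 7 filled points of BP minus B6 and of Rag1 minus B6 are those of Igha, Igkv8-30, Jchain, Iglv1 and Ighm, and the 1 filled point of BP minus Rag1 is a probe set of Sdc1.

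The comparison of BP with Rag1 tissue, which have the same source label, asked how these groups differ. It cannot isolate what BP adds. The lowest actin ratio in BP, 2.43, was above the highest in Rag1, 1.77. Xist was at most 24.1 in Rag1 but reached 624 and 1735 in BP replicates 2 and 3. Group, RNA quality and, in part, a sex-linked signal thus changed together. The same limit holds for all BP minus Rag1 differences, also those of genes outside the members. The Igha, Igkv8-30 and Jchain probe sets and the tested Iglv1 probe sets overlapped between these groups. On Ighm 1427870_x_at all BP arrays lay below all Rag1 arrays, a difference of -0.71 ± 0.29 that did not pass (limma adjusted p = 0.200). The untested Iglv1 1427292_at was dim but had all BP arrays above all Rag1 arrays. Of the 22 tested member probe sets, 1 was lower and none was higher in BP tissue. Of all tested probe sets, 2.7% were lower and 1.1% were higher, so 1 lower member of 22 is near that background. At an unadjusted p under 0.05 in limma, 2 member probe sets were lower and 1 was higher, and the share of all tested probe sets at this p was not taken. For Igha the difference was 0.16 on probe set 1425763_x_at (95% confidence interval -0.61 to 0.93), -0.04 on 1421653_a_at (-0.79 to 0.72) and -0.11 on 1429381_x_at (-0.93 to 0.71). For Igkv8-30 it was 0.09 (-0.73 to 0.90) and for Jchain 0.49 (-0.56 to 1.54). These intervals, which reach 1.54 for Jchain, do not show equal levels. The median difference of the 22 tested member probe sets was 0.02, against -0.05 for all tested probe sets.

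The 1 called probe set between BP and Rag1 was 1448158_at of Sdc1, and the Sdc1 probe sets disagreed. It read 13.3, 26.2 and 3.82 on the BP arrays, 135, 102 and 226 on the Rag1 arrays, and 42.2, 149 and 29.6 on the B6 arrays. All BP arrays lay below all Rag1 arrays, a difference of -2.46 ± 0.44 (limma adjusted p = 0.0172). Probe set 1437279_x_at went the other way, with 349, 1168 and 333 on the BP arrays, 281, 161 and 431 on the Rag1 arrays and 314, 258 and 335 on the B6 arrays, and a difference of 1.02 ± 0.37 that did not pass (adjusted p = 0.152). The other 2 differed by -0.61 and -0.07 and did not pass. Within BP the array with the lowest actin ratio, 2.43, read highest on 1448158_at, and within B6 the array with the lowest ratio, 1.76, read highest. Within Rag1 the ratios were nearly the same, and the array with the highest ratio, 1.77, read highest, at 226. With the actin ratio as a covariate the difference was -1.59 (limma adjusted p = 0.0724). Without the BP arrays of high ratio, replicates 1 and 3, it was -2.16, which rests on 1 BP array. The difference did not pass without BP replicate 3 (limma adjusted p = 0.0615), Rag1 replicate 1 (0.0874), 2 (0.0721) or 3 (0.0721).

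The 3 B6 arrays differed among themselves in antibody transcripts, and Igha, Igkv8-30, Jchain and Mzb1 ran in the same order. B6 replicate 2 was the lowest B6 array for 17 of the 22 tested member probe sets, and B6 replicate 3 was the highest for 15. These shares were not taken over all tested probe sets, so the counts do not set the members apart. Derl3 and Sdc1 1415944_at and 1437279_x_at were also lowest on replicate 2. Prdm1 and Sdc1 1415943_at were lowest on replicate 1, and Sdc1 1448158_at was lowest on replicate 3 and highest on replicate 2. Of the called probe sets, Iglv1 1430523_s_at was lowest and Ighm 1427351_s_at highest on replicate 1. Jchain stood at 97.2%, 31.7% and 171% of its B6 mean on replicates 1, 2 and 3, and Mzb1 at 107%, 32.3% and 161%. Igkv8-30 stood at 117%, 44.1% and 139%, and Igha, by probe set 1425763_x_at, at 113%, 55.5% and 132%. Replicate 2 was thus lowest for all 4, and the spread was wider for Jchain and Mzb1 than for Igha. Cd79a kept another order, 176%, 54.5% and 69.9%, with replicate 1 highest. B6 replicate 2 had the lowest actin ratio of the 3, 1.76 against 3.25 and 4.17 on replicates 1 and 3, and the part of RNA quality in this order was not tested.

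Genes whose profile over the 9 arrays was most like that of Igha 1429381_x_at, the brightest Igha probe set on average over all arrays, were looked for among 12800 other named genes, by the root mean square difference of mean-centred log2 values. Igk, the kappa light chain locus, was closest, at 0.43. It read 24.4, 23.7 and 21.9 on the BP arrays, 32.3, 27.6 and 19.9 on the Rag1 arrays, and 1627, 539 and 1593 on the B6 arrays, and so shared the low value on B6 replicate 2. Among members, Jchain stood at 0.50 and Igkv8-30 at 0.64, and Derl3 at 2.49. After Igk there was a gap: the next were the T cell chemokine Ccl5 (1.48), the T cell surface gene Cd7 (1.49), the class II peptide loading gene H2-DMa (1.55), the interferon-inducible GTPase Igtp (1.55), the T cell receptor subunit Cd3g (1.68), the GTPase Irgm2 (1.69) and the T cell receptor gamma segment Trgv4 (1.72). These were high in B6 tissue too, but all 7 ran in another order within B6 than Igha, with replicate 1 lowest, and Ccl5, Cd7, H2-DMa, Igtp and Irgm2 were highest on replicate 2. Igtp read 1265, 3023 and 1363 and Irgm2 read 272, 904 and 357 on replicates 1, 2 and 3.

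**Figure D3:**
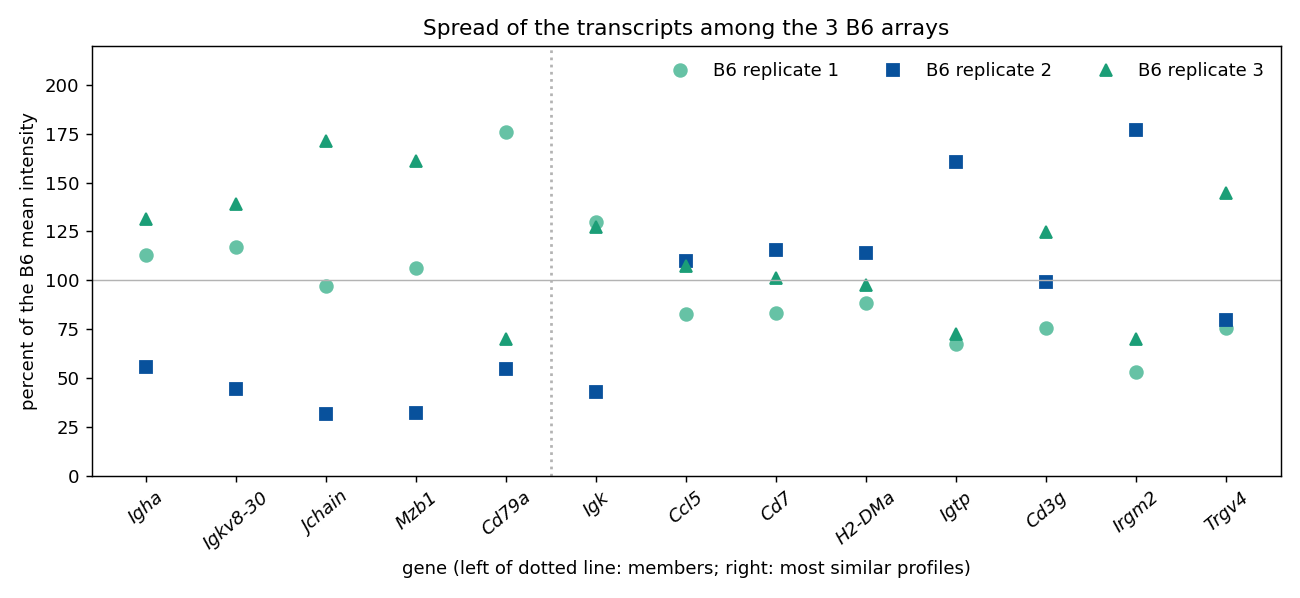
Intensity on each B6 array as a percentage of the mean of the 3 B6 arrays, for 5 members (left of the dotted line) and the 8 genes with the most similar profile (right). B6 replicate 2, the square, is lowest for Igha, Igkv8-30, Jchain, Mzb1, Cd79a and Igk, and highest for Ccl5, Cd7, H2-DMa, Igtp and Irgm2.

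Besides the members, 16 immunoglobulin symbols had 25 probe sets, 9 of them tested; 2 were lower in both comparisons with B6 and 7 did not pass in either. The 2 were Igk 1452557_a_at, at -4.88 ± 0.37 for BP minus B6 (limma adjusted p = 5.39e-05) and -4.76 ± 0.37 for Rag1 minus B6 (adjusted p = 0.000106), and 1460423_x_at of the kappa segment Igkv9-120, at -2.73 ± 0.41 (adjusted p = 0.0126) and -2.95 ± 0.41 (adjusted p = 0.00902). The Igkv9-120 probe set was chosen for mention with its values known. The other 2 tested probe sets of Igkv9-120 did not pass: 1452536_s_at stood at -0.96 for BP minus B6 (limma adjusted p = 0.152) and -1.36 for Rag1 minus B6 (adjusted p = 0.117), and 1427750_at, the brightest, at 0.36 (adjusted p = 0.794) and 0.03 (adjusted p = 0.999). Segment Igkv6-14 was too dim to test, but it read 276 on B6 replicate 3, with 36.8 the next value. Ighg3, an IgG constant region, read at most 49.5 on any array in its 4 probe sets.

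Genes of the B cell surface and lineage were mostly dim. Of 24 listed, 18 were tested, with medians of -0.24 for BP minus B6 and -0.30 for Rag1 minus B6, against -0.04 and 0.01 for all tested probe sets. At an unadjusted p under 0.05 in limma, 4 were lower in BP and 7 in Rag1 than in B6 tissue, and none was higher. The share of all tested probe sets at this unadjusted p was not taken. Such counts, here and for the lists below, therefore do not set a list apart. By the adjusted p 1 gene was lower, the same in both comparisons. That gene was Cd74, the invariant chain of class II molecules, which other antigen presenting cells and epithelium also make. It read 1871, 1776 and 2348 on the BP arrays, 3304, 3544 and 3792 on the Rag1 arrays, and 7685, 8088 and 7410 on the B6 arrays. The groups did not overlap, and Cd74 was also lower in BP than in Rag1 tissue (-0.76 ± 0.18, limma adjusted p = 0.0399). The summed intensity of the other 21 measured genes was between 758 and 1103 for BP, 766 and 838 for Rag1, and 870 and 1180 for B6. Cd79b, the partner of Cd79a, read 14.6, 24.5 and 50.2 on the BP arrays, 20.2, 7.10 and 18.1 on the Rag1 arrays, and 101, 28.98 and 95.9 on the B6 arrays. Pou2af1, a coactivator of antibody genes, read 5.41, 23.2 and 43.3 on the BP arrays, 15.9, 11.4 and 12.3 on the Rag1 arrays, and 61.6, 25.4 and 93.9 on the B6 arrays. Neither passed, and both were lowest on replicate 2 within B6. Of the 18 tested genes, 14 had a negative difference in each comparison with B6 and the others did not. Fcer2a stood at 0.73 for BP minus B6 and Cr2 at 0.35 for Rag1 minus B6, and neither passed. Within B6, Cd22 and Fcmr were highest on replicate 2. The genes named here besides Cd74 were chosen for mention with their values known.

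Genes of plasma cell identity and homing, members left out, were not called against B6. Of 24 listed, 15 were tested and none passed in limma in either comparison; at an unadjusted p under 0.05, 4 were lower and 1 was higher in BP and none differed in Rag1 tissue. The chemokine receptor Cxcr4 had the smallest p for Rag1 minus B6, at -0.59 ± 0.30 (limma adjusted p = 0.964). Between BP and Rag1, 1 of the 15, Glcci1, was lower in BP tissue by its brightest probe set, against 2.7% of all tested probe sets. Its difference was -1.10 ± 0.22 (limma adjusted p = 0.0254), and only 1 of its 2 tested probe sets was called.

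Of 32 tested genes of the antibody secretion machinery, which every secretory cell uses, 1, Herpud1, was lower in BP than in B6 tissue by its brightest probe set (-0.98 ± 0.17, limma adjusted p = 0.026); at an unadjusted p under 0.05, 8 were lower and 1 was higher. Herpud1, a gene of endoplasmic reticulum stress, read 594, 837 and 770 on the BP arrays, 865, 993 and 949 on the Rag1 arrays, and 1456, 1547 and 1465 on the B6 arrays. None passed for Rag1 minus B6 in limma, where 5 were lower and none was higher at an unadjusted p under 0.05. The list medians were -0.15 for BP minus B6 and -0.09 for Rag1 minus B6. Of 12 tested signals of IgA induction, transport and homing, none passed in any comparison in limma by its brightest probe set; 1 was lower in BP and 1 in Rag1 than in B6 tissue at an unadjusted p under 0.05, and between BP and Rag1 2 were lower and 2 higher. Pigr, which carries IgA across the epithelium, had a dimmer probe set, 1450060_at, that was lower in BP than in Rag1 tissue (-1.74 ± 0.22, limma adjusted p = 0.00719), while its brightest stood at -0.26 (adjusted p = 0.346). The gut homing chemokine Ccl25 read 3458, 3677 and 3234 on the BP arrays, 4025, 4374 and 4458 on the Rag1 arrays, and 4549, 4540 and 4217 on the B6 arrays.

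T cells also need Rag1, and some of their markers were lower as well: of 8 tested T cell genes, 3 (Cd3e, Cd3g and Cd7) were lower in BP than in B6 tissue and 4 (these and Cd3d) were lower in Rag1 than in B6 tissue, against 0.574% and 0.259% of all tested probe sets. The others did not pass, among them Zap70, at 0.06 in both comparisons, and Cd247, at 0.03 for BP minus B6 and -0.46 for Rag1 minus B6. The summed intensity of 13 T cell genes was between 520 and 626 for BP, 510 and 548 for Rag1, and 1134 and 1307 for B6. Within B6 the T cell sum was not lowest on replicate 2, which read 1236 against 1134 on replicate 1. None of 13 macrophage and dendritic cell genes, 15 epithelial genes and 14 smooth muscle and stromal genes passed in limma in a comparison with B6 by its brightest probe set. Of the dimmer probe sets of these genes, 2 of Cldn3, a tight junction gene of epithelium, were lower in BP than in B6 tissue (-1.13 and -0.75, limma adjusted p = 0.0245 and 0.0252), while its brightest did not pass (-0.32, adjusted p = 0.272). At an unadjusted p under 0.05 the macrophage list had 4 higher genes, the epithelial list 4 lower genes and the stromal list 3 lower and 2 higher genes for BP minus B6, and 1 epithelial gene was higher for Rag1 minus B6.

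**Figure D4:**
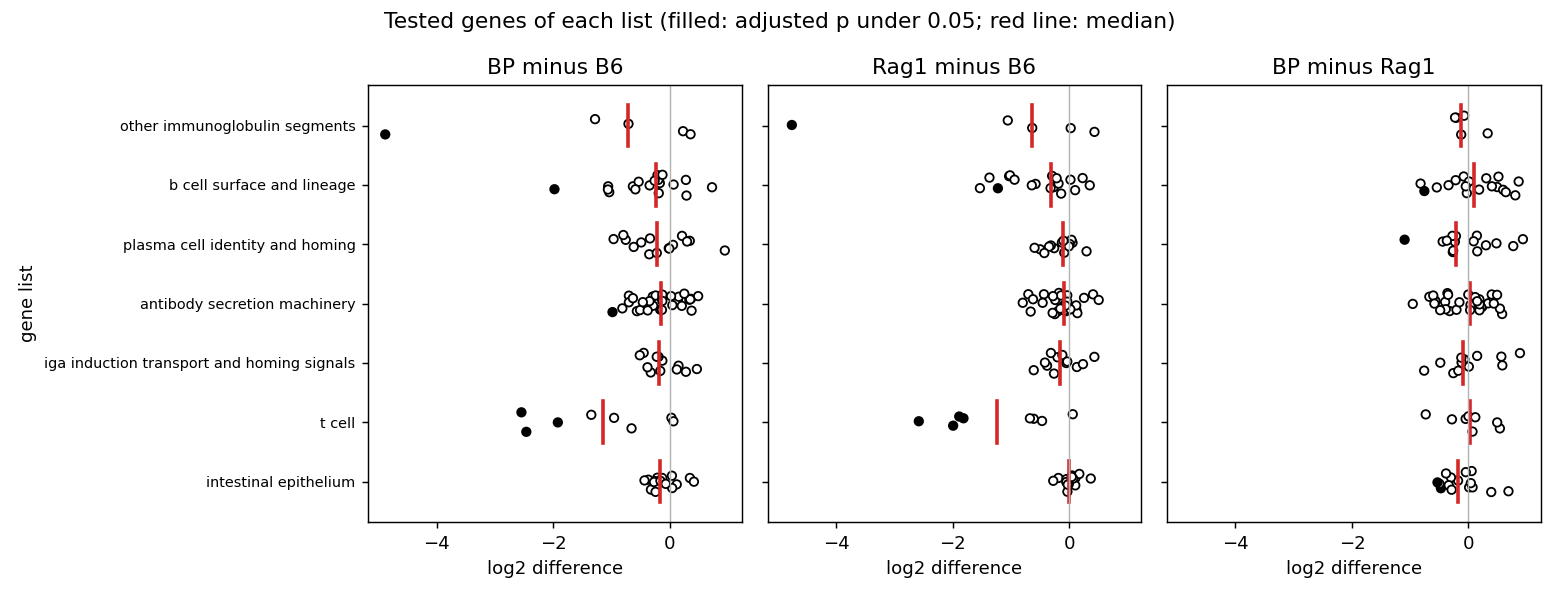
Log2 difference of each tested gene in 7 gene lists for BP minus B6, Rag1 minus B6 and BP minus Rag1, with members left out; filled points have an adjusted p under 0.05 and red lines are list medians. In both comparisons with B6 the lowest point is Igk, at -4.88 and -4.76, and filled T cell points lie near -2, while the secretion list centres on -0.15 and -0.09.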

How the data were processed

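Affymetrix arrays of 9 tissue samples gave 45101 probe sets. The deposited values are linear intensities; the software and scaling the authors used are not given in the sources used here. Per the labels, each cRNA target started from 20 µg of RNA. No column was left unmatched (0). Groups came from the sample titles. The members and gene lists were chosen with earlier results of these data known.

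Values were transformed as log2(value + 16) and quantile-normalized. The 64 control probe sets and the dimmest 40% of the others (mean of all 9 arrays) were removed (a mean below 5.30, an intensity of about 23.5), leaving 27022. Symbols came from the platform annotation; all 10 members matched RefSeq gene identifiers. Tests used limma 3.58.1 in R 4.3.3: 1 mean per group, all arrays in 1 fit, empirical Bayes with an intensity trend, two-sided, Benjamini-Hochberg over all tested probe sets, threshold 0.05. A gene in a list was represented by its brightest tested probe set. Named were all members at every probe set, up to 6 called genes per list or 2 with the smallest p, and the 8 nearest profiles; some genes that this rule names go unprinted. The fit was tested on simulated data. Alternatives covered scaling, pseudocounts 1 and 64, filters, samples in the fit, moderation, weights, the actin ratio and each left-out array. The median SD within a group was 0.44 for BP, 0.21 for Rag1 and 0.23 for B6.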

Additional observations from a re-analysis of the deposited data

How the results depend on the processing

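Across 24 alternatives the 7 lower member probe sets of BP minus B6 were 13 with the actin ratio as a covariate (12 lower, 1 higher) and 4 with 1 probe set per gene. The 7 of Rag1 minus B6 were 13 with array weights and 4 with 1 probe set per gene. The 1 of BP minus Rag1 was 4 with the actin covariate, 3 without BP replicates 1 and 3, which left a lone BP array assumed to vary like the others, 2 with array weights, and 0 at a threshold of 0.01 or with 1 probe set per gene. With 1 array left out the counts ran from 6 to 10, from 5 to 8 and from 0 to 2. With the replicate block they were 7, 6 and 1. Only 1 of 9 same-numbered pairs of arrays had a correlation of deviations over 0.1 (range -0.19 to 0.23), so the numbers were not taken to pair the samples. The 23 single differences under the alternatives that tested them gave 539 results. Of these, 503 kept the main outcome, 23 lost a call, 13 gained one and none reversed with a call. With the actin covariate Igha 1429381_x_at was called lower in BP than in Rag1 tissue (-1.18, limma adjusted p = 0.0401). The number of all probe sets called, 171, 89 and 1027 in the main setting, ran from 51 to 5700, from 37 to 1050 and from 18 to 5978, so the background shares are less stable than the antibody calls. Dim probe sets limit what the arrays show: intensities near the floor have no order.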
